A study of Mus musculus with 132 samples.

Results

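A group of 10 long noncoding RNAs was followed here across the mouse blood differentiation series: Malat1, Neat1 and Miat, which stay in the nucleus, and Gas5, Snhg1, Snhg3, Snhg5, Snhg8, Snhg12 and Dancr, whose introns carry small nucleolar RNAs (snoRNAs). They were chosen by name, as 10 of the 25146 gene entries in the count table, with earlier results of these data known. The counts came from poly(A)-minus RNA-seq, in which RNA with a poly(A) tail is removed, and reads were counted over exons and introns together. The 23 libraries were derived from E14-TG2a mouse embryonic stem cells (mESCs), a male line, at 3 stages of culture: undifferentiated mESCs (day 0), Flk1+ mesoderm (day 4) and CD41+ hematopoietic progenitor cells (HPCs, day 7).

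Wild-type (WT) cells gave 2 mESC libraries, labelled as technical replicates, 3 mesoderm libraries (clones C6.1, C8.1 and B9.3) and 4 HPC libraries (the same clones, with a second library of B9.3, named B9.3-2). P1-CTCF-KO cells, in which the CTCF site next to the distal promoter P1 of Runx1 was deleted by CRISPR, gave 3 mesoderm and 3 HPC libraries (clones E7.1, E7.2 and E9.1). P2-CTCF-KO cells, with the corresponding deletion at the proximal promoter P2, gave 3 mesoderm libraries (clones D2.1, D10.1 and a different clone also called E9.1) and 5 HPC libraries (the same clones, with second libraries D10.1-2 and D2.1-2). No undifferentiated knockout cells were analysed here. Each knockout group therefore rests on 3 clones.

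Malat1 is a long nuclear RNA found in nuclear speckles, bodies rich in splicing factors, and its mature end is cut by the tRNA-processing enzyme RNase P rather than finished with a poly(A) tail. Neat1 lies next to it and is the scaffold of paraspeckles, with a short polyadenylated form and a long form whose end is processed like that of Malat1. Miat is a nuclear RNA best known from neurons and stem cells. The Gas5 and Snhg genes and Dancr make spliced RNAs that are often degraded on translation by nonsense-mediated decay, while the introns are trimmed to snoRNAs, the guides for ribosomal RNA modification. A poly(A)-minus library thus samples the forms of the nuclear RNAs that lack a poly(A) tail and the unspliced precursors and introns of the hosts.

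The sequence below shows the genome-encoded end of Malat1, which stands in place of a poly(A) tail. It is the end of the Malat1 gene as read from mm9 (chr19:5795924-5796041, minus strand), with the tRNA-like mascRNA in capitals and the 60 bases before it in lower case. Those 60 bases hold a run of 12 A.
Malat1 end: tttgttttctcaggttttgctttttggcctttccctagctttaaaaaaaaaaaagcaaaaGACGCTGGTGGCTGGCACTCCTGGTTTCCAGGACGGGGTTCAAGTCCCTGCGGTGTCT
The mascRNA itself, listed as an entry of its own, had 61 counts over the 23 libraries, against 382950 for Malat1.

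The snoRNAs nested in the hosts show what a host read can be. The table has 8 such entries in 5 hosts. No library had more counts in a host's nested entries than in the host, which follows if reads in a nested entry count for both. Snord47 lies in Gas5 (chr1:162968223-162968287, plus strand) and Snord22 in Snhg1 (chr19:8800356-8800481, plus strand), both of the box C/D type that guides methylation of the ribose. Snora24 in Snhg8 (chr3:123210855-123210984, minus strand) and Snora26 in Dancr (chr5:74489555-74489675, plus strand) are of the box H/ACA type that guides pseudouridylation. Capitals mark the letters TGATGA (box C) and CTGA within the last 15 bases (box D) in the first pair and ACA within the last 10 bases in the second, on the strand of the gene, in mm9. Snord22 does not hold TGATGA, so only its CTGA is in capitals.
Snord47: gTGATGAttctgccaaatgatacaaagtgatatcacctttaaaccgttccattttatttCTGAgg
Snord22: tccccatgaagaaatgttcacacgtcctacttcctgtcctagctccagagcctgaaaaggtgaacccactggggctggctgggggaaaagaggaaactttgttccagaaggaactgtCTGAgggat
Snora24: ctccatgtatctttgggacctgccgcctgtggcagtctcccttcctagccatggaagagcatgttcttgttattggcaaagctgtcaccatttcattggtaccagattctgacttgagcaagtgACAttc
Snora26: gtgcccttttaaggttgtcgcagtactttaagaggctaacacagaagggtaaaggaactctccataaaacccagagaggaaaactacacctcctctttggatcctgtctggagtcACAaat
Over all Snord entries at a single locus, 35.7% hold TGATGA and 97.1% of 70 hold CTGA in that place, and 94.4% of 36 Snora entries hold ACA in that place. Snhg12 holds 4 entries, Snora44, Snora61, Snora16a and Snord99. The nested entries made up 1.86% (mesoderm) to 3.34% (mESCs) of Gas5 counts and 6.87% (mESCs) to 27.1% (mesoderm) of Snhg1 counts. They made up 26.5% (mesoderm) to 42.8% (mESCs) of Snhg8, 31.8% to 33.9% of Snhg12 and 29.2% to 35.7% of Dancr. Snhg3 and Snhg5 have no nested entry in the table, and reads of snoRNAs without an entry count only for the host.

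The start of each host is shown because several hosts are known for a run of pyrimidines at the first base, the feature that ribosomal protein genes share. RefSeq starts (GRCm38.p6) were found for 9 of the 10 members, and Neat1 had none in that table. Each line gives 30 bases before and 30 bases from the start site, with a C followed by at least 4 of C or T in capitals where it begins within 10 bases before or 20 bases after the start.
Gas5: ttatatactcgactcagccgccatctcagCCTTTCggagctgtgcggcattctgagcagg
Snhg1: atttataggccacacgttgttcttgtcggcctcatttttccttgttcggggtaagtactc
Snhg3: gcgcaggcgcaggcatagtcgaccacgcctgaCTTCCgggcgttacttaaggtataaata
Snhg5: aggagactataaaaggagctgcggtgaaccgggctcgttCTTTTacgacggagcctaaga
Snhg8: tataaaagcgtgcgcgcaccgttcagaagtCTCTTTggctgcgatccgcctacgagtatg
Snhg12: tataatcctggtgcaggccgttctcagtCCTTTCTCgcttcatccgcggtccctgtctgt
Dancr: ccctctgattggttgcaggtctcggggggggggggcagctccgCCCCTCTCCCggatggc
Malat1: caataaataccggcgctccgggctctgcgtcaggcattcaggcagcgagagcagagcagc
The run was found in 6 of the 7 hosts, and not in Snhg1 or Malat1. It began at the first base in Snhg8, 1 base before it in Gas5 and 2 bases before it in Snhg12. In Snhg3, Snhg5 and Dancr it began later, at bases 3, 10 and 14. It was also found at the start of Miat, and at 37.5% of all 32851 RefSeq starts, and so is a description of these windows. A second Gas5 start in the table lacked it. The letters TATA stood between 40 and 15 bases before the start of Gas5, Snhg1, Snhg5, Snhg8 and Snhg12, against 5.9% of all starts.

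Depth decided how well each RNA was measured. Total counts were 20532578 and 24283287 in mESCs, 18233679 to 24406998 in mesoderm and 7805102 to 13513677 in HPCs, but ribosomal RNA and entries at several loci or of very wide span took up 71.2% to 81.1% of the counts in mESCs and 94.2% to 98.0% in the later stages. What remained was 3877638 and 7005810 counts in the mESC libraries, 437974 to 1040408 per mesoderm library and 311313 to 660593 per HPC library. The Methods name ribosomal RNA depletion for mESC RNA and not for mesoderm or HPC RNA, while the labels list the depletion kit for all of this RNA-seq, so stage and library preparation cannot be told apart in any comparison with mESCs. Stage markers followed the labels: 8 pluripotency genes summed to 48.2 and 52.5 CPM in mESCs and at most 8.95 CPM later, 7 mesoderm genes to 33.2 to 110 CPM in mesoderm, and 9 hematopoietic progenitor genes to 83.6 to 266 CPM in HPCs. Levels below are CPM, counts scaled to a fixed total after TMM scaling over all 23 libraries.

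Malat1 was by far the most abundant member. Compared per kilobase of counted gene, so that genes of different length can be set side by side, its level was 126 ± 2.66 CPM per kb in mESCs (SD, n = 2), 50.3 ± 15.1 in mesoderm (n = 9) and 101 ± 36.2 in HPCs (n = 12). Snhg3, the host of box H/ACA snoRNAs, came next at every stage, with 16.0 ± 2.59, 4.32 ± 1.05 and 2.04 ± 0.604 CPM per kb. Gas5 and Snhg1 followed, at 1.54 ± 0.261 and 1.37 ± 0.218 CPM per kb in mesoderm, a difference within their spread. Snhg5, Snhg12 and Snhg8 had 1.15 ± 0.3995, 0.907 ± 0.363 and 0.683 ± 0.364 CPM per kb in mesoderm, neighbours that also overlapped. Dancr had 0.330 ± 0.176 and Neat1 0.0592 ± 0.0310 CPM per kb there, and Miat was lowest at every stage. Neat1 was the ninth in mesoderm and, by its mean of 0.651 ± 0.755 CPM per kb, the fifth in HPCs, where its libraries overlapped with those of Snhg3, Gas5, Snhg1, Snhg5, Snhg8, Snhg12 and Dancr. That place rested on P2-CTCF-KO library D10.1: without it the mean was 0.472 CPM per kb, the seventh, and its median of 0.308 CPM per kb over all 12 libraries was also the seventh.

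Between WT mESCs and WT mesoderm all 10 members had lower levels in mesoderm, and 8 of them passed the test (edgeR quasi-likelihood, adjusted p under 0.05 and more than 2-fold), all lower. Over the 12543 genes tested, 22.8% were called, 10.4% higher and 12.4% lower in mesoderm. Every WT mesoderm library lay below both mESC libraries for each of the 10 members, as it did for 36.3% of all genes tested. Miat, Snhg8 and Dancr passed the filter on low counts through the mESC libraries alone, so their calls follow in part from that choice; of the other 7 members 5 were called. The median log2 change of those 7 was -1.45, against -0.16 for all genes tested. These 2 mESC libraries are technical replicates, so the p-values measure a spread that may be technical.

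The 3 nuclear RNAs behaved as follows. Malat1 had 864 and 890 CPM in mESCs and 299, 348 and 431 CPM in WT mesoderm, 2.44-fold lower (log2 -1.29, SE 0.41, edgeR adjusted p = 0.0253). Neat1 had 8.30 and 9.23 CPM in mESCs and 0.607, 1.62 and 1.63 CPM in WT mesoderm, 6.47-fold lower (edgeR adjusted p = 0.0477). Miat had 158 and 94 counts in the mESC libraries and 0 in each of the 3 WT mesoderm libraries, at least 3.72-fold lower when 3 counts per library are taken as the floor (edgeR adjusted p = 0.00219; not called by DESeq2, adjusted p = 0.347). Miat was the member closest to absence after day 0: it had 5 counts over all 9 mesoderm libraries, 4 of them in P2-CTCF-KO D10.1, and 1 count over all 12 HPC libraries.

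Among the hosts, Snhg3 fell furthest with a small error, from 24.8 and 31.3 CPM in mESCs to 4.94, 6.97 and 9.35 CPM in WT mesoderm (3.99-fold, SE 0.34 in log2, edgeR adjusted p = 0.000258). Gas5, named for its rise on growth arrest, had 13.6 and 16.96 CPM in mESCs and 3.72, 5.23 and 6.43 CPM in WT mesoderm, 3.01-fold lower (edgeR adjusted p = 0.00853). Snhg1 had 9.39 CPM in both mESC libraries and 3.13, 3.37 and 3.89 CPM in WT mesoderm, 2.73-fold lower (edgeR adjusted p = 0.0176). Snhg8 (1.94 and 2.35 CPM against 0.116, 0.421 and 0.728) was 5.61-fold and Dancr (1.67 and 1.98 CPM against 0.364, 0.465 and 0.601) 3.70-fold lower, with edgeR adjusted p = 0.00676 and 0.0278. Snhg5 and Snhg12 were 2.48- and 2.57-fold lower and missed the threshold (edgeR adjusted p = 0.0556 and 0.0566).

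Several calls were lost when 1 library was left out, mostly with little change in size. Leaving out a mESC library leaves 1, which is then assumed to vary like the libraries of the other groups. Without E14-1, Malat1, Neat1, Gas5, Snhg1 and Dancr were no longer called (edgeR adjusted p = 0.13, 0.128, 0.0925, 0.0998 and 0.173, with changes of 2.27-, 6.43-, 2.53-, 2.58- and 3.19-fold), and without E14-2, Malat1, Neat1, Snhg1, Snhg8 and Dancr were not (0.118, 0.156, 0.096, 0.0612 and 0.108). Leaving out WT mesoderm C6.1 ended the calls of Malat1 (0.0751), Neat1 (0.123) and Dancr (0.069), C8.1 those of Neat1 (0.0957), Snhg1 (0.0608) and Dancr (0.0548), and B9.3 those of Malat1 (0.0726), Neat1 (0.102), Snhg1 (0.0547) and Dancr (0.084). Neat1 was also lost without any of 10 libraries of other groups, with log2 changes between -2.71 and -2.65 and adjusted p between 0.0504 and 0.0559. Conversely, Snhg5 was called without P2-CTCF-KO mesoderm D2.1 or HPC library WT C8.1, WT B9.3-2, P2-CTCF-KO D2.1 or D10.1 (adjusted p between 0.0238 and 0.0475). Snhg12 was called without WT mesoderm C6.1 or HPC library WT B9.3-2, P1-CTCF-KO E7.1, P2-CTCF-KO D2.1, D10.1 or D2.1-2 (adjusted p between 0.0238 and 0.0496). With clones summed Malat1 (0.0811) and Dancr (0.096) were not called, and without entries at several loci or of ribosomal RNA Malat1 (0.0619) and Neat1 (0.0584) were not; RLE size factors also ended the call of Neat1 (0.0553). Snhg3 was called under all 32 alternatives tried.

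The other snoRNA-host RNAs of a list of the same kind were mostly lower as well: 9 of 12 tested were called lower, none higher, with a median log2 change of -1.59. The lowest p-values belonged to Snhg14 (3.61-fold lower, edgeR adjusted p = 0.00026), Snhg4 (3.09-fold, 0.00135) and Snhg16 (3.79-fold, 0.00473). Protein-coding genes that also carry snoRNAs were called lower in 8 of 16 (Rpl13a, Eif4a2 and Rpsa by 3.38-, 3.66- and 2.98-fold). Of 11 paraspeckle proteins none was called, and of 11 snoRNP proteins, which bind the snoRNAs, 2 were lower: Nhp2 (2.69-fold) and Nop56 (2.09-fold). Among 10 nonsense-mediated decay factors 2 were higher (Upf1 2.73-fold, Smg6 2.48-fold) and 1 lower (Smg5 2.24-fold). Of 10 other nuclear or regulatory RNAs 3 were called higher, among them the imprinted antisense RNAs Airn (51.1-fold) and Kcnq1ot1 (2.08-fold), and 1 lower. Airn and Kcnq1ot1 each overlap a gene on the other strand, and whether counting used strand is not stated. On chromosome 5 the plus-strand entry Gm6367 lies inside the minus-strand entry Gm7978 and had more counts, 305912 against 289919. Counting that ignored strand and let a read count for every entry it overlaps would not give this. Of 11 speckle and splicing factors 1 was called, Srrm2 (2.28-fold higher).

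The counts per library are shown for the pair of nuclear RNAs at chromosome 19.

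**Figure D1:**
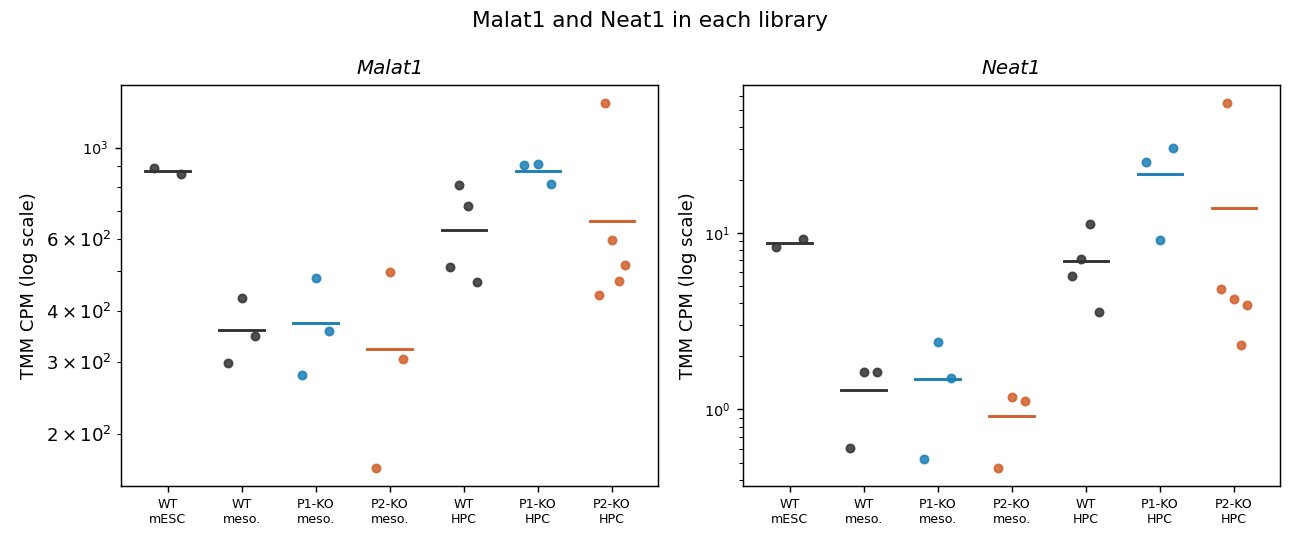
Levels of Malat1 (left) and Neat1 (right) in TMM CPM on log axes; each point is a library, each line a group mean, in the order WT mESCs, then mesoderm and HPCs of WT, P1-CTCF-KO and P2-CTCF-KO. The 9 mesoderm libraries had 0.469 to 2.43 CPM of Neat1 and the 12 HPC libraries 2.32 to 54.4 CPM.

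From mesoderm to HPCs Neat1 and Malat1 were called higher in both knockouts, and no member was called higher in WT. Neat1 rose 14.2-fold in P1-CTCF-KO cells and 14.8-fold in P2-CTCF-KO cells, the latter 4.08-fold without HPC library D10.1. Malat1 rose 2.36-fold in P1-CTCF-KO cells and 2.05-fold in P2-CTCF-KO cells, where the libraries overlapped and 11 of 34 alternatives ended the call. Of the 7 hosts, Snhg3 was called lower in WT, Snhg5 and Snhg12 in P1-CTCF-KO, and Snhg3 and Snhg12 in P2-CTCF-KO cells. In WT cells 1 of 10 members was called, Snhg3, which was lower; over all genes tested 23.1% were called, 10.7% higher and 12.4% lower. In P1-CTCF-KO cells 4 members were called, 2 higher and 2 lower, against 26.8% of all genes, 13% higher and 13.8% lower. In P2-CTCF-KO cells 4 were called, 2 higher and 2 lower, against 25% of all genes, 13.2% higher and 11.8% lower. Over all genes tested the median log2 change was -0.02 in WT, -0.16 in P1-CTCF-KO and 0.00 in P2-CTCF-KO. Miat, Snhg8 and Dancr passed the filter through the mESC libraries alone here as well, with at most 14 counts in any later library.

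Neat1 had 0.607, 1.62 and 1.63 CPM in WT mesoderm and 3.58, 5.72, 7.08 and 11.2 CPM in WT HPCs. Every HPC library was above every mesoderm library, and the change was 5.14-fold (log2 2.36, SE 0.91) with edgeR adjusted p = 0.0582, just short of the threshold. With the clone as a replicate block, which pairs mesoderm and HPCs of the same clone, it was called (log2 2.39, edgeR adjusted p = 0.0425). DESeq2 also called it, and edgeR did so without P2-CTCF-KO HPC library D10.1 (adjusted p = 0.00125), D2.1 (0.0466) or D2.1-2 (0.0412). In P1-CTCF-KO cells Neat1 had 0.525, 1.51 and 2.43 CPM in mesoderm and 9.17, 25.3 and 30.4 CPM in HPCs (log2 3.82, SE 0.95, edgeR adjusted p = 0.00411). In P2-CTCF-KO cells it had 0.469, 1.11 and 1.17 CPM in mesoderm and 2.32, 3.91, 4.23, 4.81 and 54.4 CPM in HPCs (log2 3.89, SE 0.96, edgeR adjusted p = 0.00383). The groups did not overlap in any of the 3 genotypes.

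The size of the P2-CTCF-KO change rested on 1 library. HPC library D10.1 held 562 Neat1 counts and the second library of the same clone, D10.1-2, held 44, which is 54.4 against 4.23 CPM, a 12.9-fold difference between libraries of 1 clone. Without D10.1 the P2-CTCF-KO change was 4.08-fold (edgeR adjusted p = 0.00674). Leaving out the mesoderm library of P1-CTCF-KO E7.2 moved the P1-CTCF-KO change to 21.3-fold (edgeR adjusted p = 0.00945). Of the 4 cardiac genes looked for as a sign of other cell types, Nkx2-5, Myh6 and Myl7 had 0 counts in all HPC libraries, and Tnnt2, a muscle troponin, had 7.17 CPM in D10.1, 2.15 in P1-CTCF-KO E9.1, 1.82 in P1-CTCF-KO E7.1 and 0 to 1.29 CPM in the other 9. The first 3 of these libraries also had the most Neat1 and the highest sums of the 9 hematopoietic progenitor genes. Those sums were 266 CPM in D10.1, 238 CPM in P1-CTCF-KO E9.1 and 259 CPM in P1-CTCF-KO E7.1. The other HPC libraries had 83.6 to 210 CPM. The 5 erythroid genes summed to 32.8 CPM in D10.1, 23.9 in P1-CTCF-KO E9.1 and 44.0 in P1-CTCF-KO E7.1. In the other HPC libraries they summed to 14.1 to 95.1 CPM, lowest in P2-CTCF-KO D2.1 and highest in D10.1-2. Of 7 endothelial genes 5 were called higher in HPCs than in mesoderm in P2-CTCF-KO cells and none in WT or P1-CTCF-KO cells, and 1 was called lower in WT. None of these 7 genes was called between P2-CTCF-KO and WT mesoderm. Nor did their step from mesoderm to HPCs differ from WT by the same test, so a difference between genotypes is not shown for these genes. In mesoderm their sum was 0.482 to 0.750 CPM in P2-CTCF-KO, against 1.82 to 76.0 CPM in WT and 4.07 to 44.4 CPM in P1-CTCF-KO. In P2-CTCF-KO HPCs it was 8.66 to 56.2 CPM, highest in D2.1 and 27.2 CPM in D10.1. WT HPCs had 11.8 to 22.7 CPM and P1-CTCF-KO HPCs 18.4 to 24.7 CPM. HPCs were sorted for the surface marker CD41, and the part of other cells in the result was not tested. In RNA from sorted populations fewer cells of a type and less RNA per cell cannot be told apart.

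Malat1 changed less and more evenly. It had 299, 348 and 431 CPM in WT mesoderm and 470, 511, 722 and 809 CPM in WT HPCs, 1.75-fold higher and not called (edgeR adjusted p = 0.0976), although the libraries did not overlap. In P1-CTCF-KO cells 279, 357 and 482 CPM in mesoderm rose to 816, 907 and 911 CPM in HPCs (2.36-fold, SE 0.38 in log2, edgeR adjusted p = 0.0161), a call that was lost without the mesoderm library E7.1 (2.095-fold, adjusted p = 0.0744). In P2-CTCF-KO cells 166, 305 and 497 CPM in mesoderm stood against 438, 474, 518, 597 and 1283 CPM in HPCs (2.05-fold, SE 0.35 in log2, edgeR adjusted p = 0.0257), and here the libraries overlapped. The call was lost when any of 6 libraries was left out. Without P2-CTCF-KO HPC D10.1 (1.57-fold, adjusted p = 0.0891) or P2-CTCF-KO mesoderm D2.1 (1.65-fold, 0.148) or E9.1 (2.00-fold, 0.0849) both limits were missed, and without WT HPC B9.3 (1.965-fold, 0.0438), E14-1 (1.98-fold, 0.0389) or E14-2 (1.93-fold, 0.0496) the limit on fold change alone. Malat1 was also under the limits with DESeq2, RLE size factors, no filter on low counts and clones summed (log2 0.94 to 0.96), and without entries at several loci or of ribosomal RNA (log2 1.01, adjusted p = 0.0598).

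**Figure D2:**
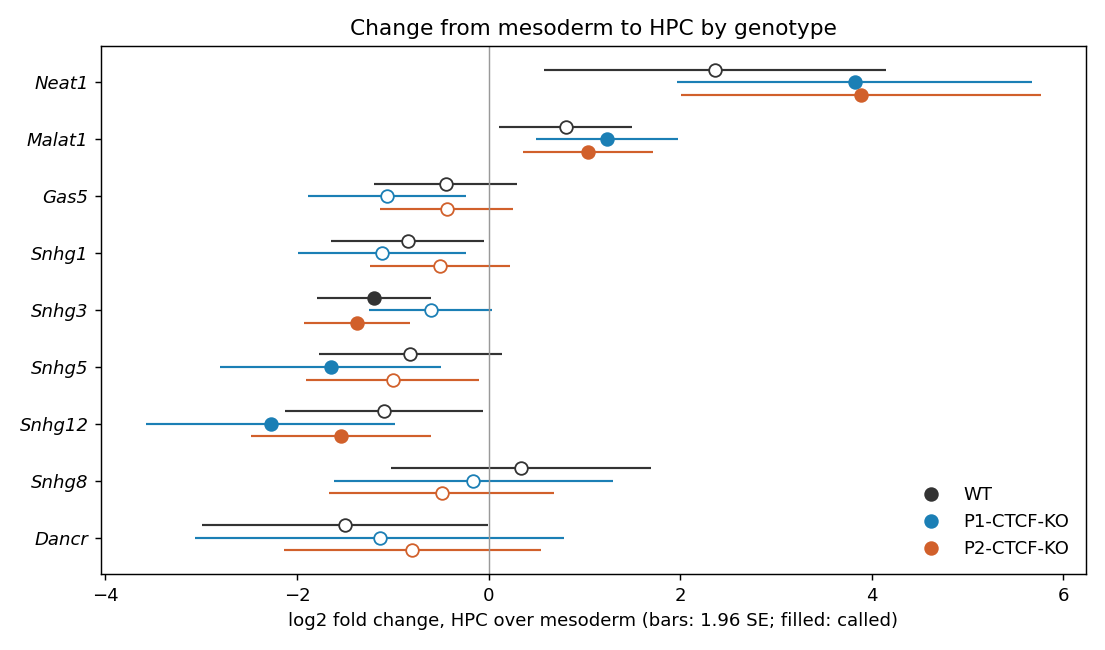
Fitted log2 fold change from mesoderm to HPCs for 9 members in WT and the 2 knockouts; bars are 95% intervals and filled points passed the test. Neat1 and Malat1 lie to the right of 0 in all 3 genotypes, and Gas5, Snhg1, Snhg3, Snhg5, Snhg12 and Dancr to the left.

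The hosts had fewer counts, and their calls differed between genotypes without a tested difference between them. Snhg3 had 4.94, 6.97 and 9.35 CPM in WT mesoderm and 1.80, 3.42, 3.55 and 3.58 CPM in WT HPCs, without overlap (2.28-fold lower, edgeR adjusted p = 0.00568). Without the mesoderm library C6.1 that change was 1.94-fold (adjusted p = 0.0402) and under the limit on fold change. In P2-CTCF-KO cells Snhg3 had 7.97, 8.81 and 10.6 CPM in mesoderm and 1.604, 3.29, 3.94, 4.24 and 4.75 CPM in HPCs (2.59-fold lower, SE 0.28 in log2, edgeR adjusted p = 0.000836). In P1-CTCF-KO cells it had 5.23, 6.83 and 7.55 CPM and then 3.55, 3.85 and 5.37 CPM, groups that overlapped (edgeR adjusted p = 0.17).

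Snhg12, the host with 4 nested snoRNA entries, had 1.63, 2.02 and 2.23 CPM in P1-CTCF-KO mesoderm and 0, 0.380 and 0.671 CPM in P1-CTCF-KO HPCs (4.84-fold lower, edgeR adjusted p = 0.0124). Those HPC values are 0, 3 and 6 counts, and without E7.2, the library with 6, the fitted change was 8.44-fold (adjusted p = 0.0155). In P2-CTCF-KO cells Snhg12 had 1.58, 2.37 and 3.56 CPM in mesoderm and 0.581 to 1.37 CPM in HPCs, with a median of 0.698 (2.91-fold lower, edgeR adjusted p = 0.0171). Without the P2-CTCF-KO mesoderm library D2.1 it was not called (2.31-fold, adjusted p = 0.103). In WT cells the groups overlapped (0.697 to 3.16 against 0.417 to 1.92 CPM, edgeR adjusted p = 0.131), and Snhg12 was called without HPC library B9.3-2 (3.20-fold, adjusted p = 0.0271) or without mesoderm library B9.3 (2.88-fold, adjusted p = 0.0352).

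Snhg5 was called in P1-CTCF-KO cells alone. It had 1.46, 2.47 and 2.56 CPM in mesoderm and 0.253, 0.811 and 1.01 CPM in HPCs there (3.14-fold lower, edgeR adjusted p = 0.0372). The HPC values are 2, 4 and 9 counts, and the call was lost without P1-CTCF-KO mesoderm E7.2 (adjusted p = 0.0877) or E9.1 (0.0861), or HPC E7.1 (0.0709) or E9.1 (0.171). Snhg5 was 1.76-fold lower in WT and 2.00-fold lower in P2-CTCF-KO HPCs, with edgeR adjusted p = 0.23 and 0.104.

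Gas5 and Snhg1 were not called in any genotype. Gas5 had 3.72 to 6.43 CPM in WT mesoderm and 2.66 to 4.99 CPM in WT HPCs, and it went from 5.45, 5.72 and 5.78 CPM to 0.811, 2.91 and 4.02 CPM in P1-CTCF-KO cells, without overlap (2.08-fold lower, edgeR adjusted p = 0.0611). Snhg1 went from 3.68, 3.99 and 4.84 CPM to 1.14, 1.62 and 2.91 CPM in P1-CTCF-KO cells (2.16-fold lower, edgeR adjusted p = 0.0631). DESeq2 called both of these. Gas5 was also called without mESC E14-2 (adjusted p = 0.043) or without HPC library WT B9.3 (0.0426), P1-CTCF-KO E7.2 (0.0308), P2-CTCF-KO D2.1 (0.0415) or D10.1 (0.0435), and Snhg1 without mESC E14-2 (0.0498) or HPC library WT B9.3 (0.0201), WT B9.3-2 (0.0298) or P1-CTCF-KO E7.2 (0.0318). Without WT HPC library B9.3-2, which held more Snhg1 (3.97 CPM) than the other WT HPC libraries (0.601 to 1.87 CPM), Snhg1 was called lower in WT as well (2.61-fold, edgeR adjusted p = 0.012). Snhg8 and Dancr were too low for a firm statement, at 1 to 14 and 0 to 10 counts in the later libraries, and Dancr also lies within 8 very wide entries of chromosome 5. Miat in P2-CTCF-KO, at 5 counts against 0, was not called (edgeR adjusted p = 0.0555) except without mesoderm library D2.1 (0.0333).

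**Figure D3:**
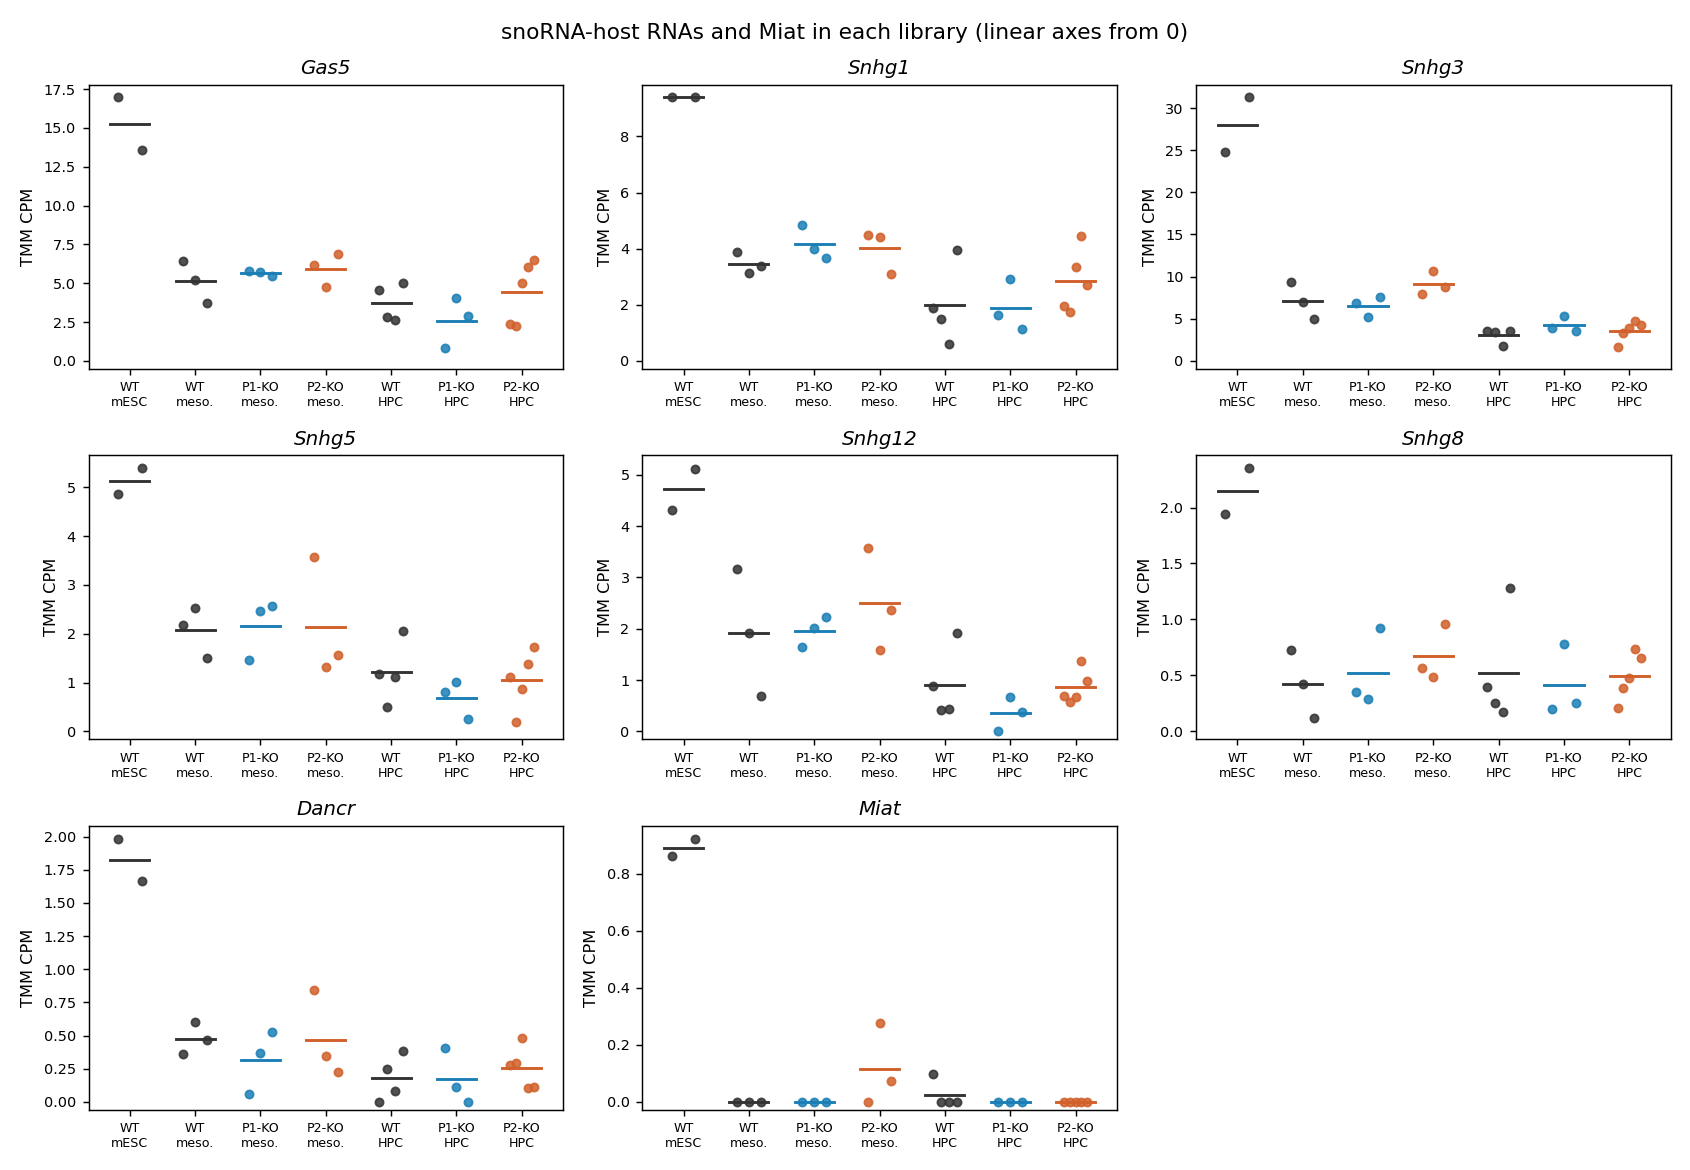
Levels of the 7 hosts and Miat in TMM CPM on linear axes; each point is a library and each line a group mean, in the same group order. Every host was highest in the 2 mESC libraries, and Miat was at 0 in 18 of the 21 later libraries.

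Related genes gave a mixed background to these steps. Of 12 other snoRNA-host RNAs tested, 3 were called lower in WT, 3 in P1-CTCF-KO and 6 in P2-CTCF-KO HPCs and none higher; Snhg4 and Snhg7 were called lower in all 3 genotypes (2.42- and 2.94-fold in WT). Of 16 protein-coding snoRNA hosts 1, 6 and 4 were lower and none higher, with Nop56, a core snoRNP protein that is also a host, lower in each (2.33-fold in WT, edgeR adjusted p = 0.0078). Nolc1, a chaperone of snoRNPs, was lower in each genotype too (2.25-, 2.15- and 2.06-fold), as 2, 4 and 3 of 11 snoRNP proteins were in all. Of 10 nonsense-mediated decay factors none was called in WT, while Upf1 was lower in both knockouts (2.14- and 2.25-fold) and Upf3b higher in P2-CTCF-KO (4.32-fold). None of 11 paraspeckle proteins was called in any genotype, and of the speckle and splicing factors 1 was, Srsf7 in P1-CTCF-KO cells (2.67-fold lower). Among other nuclear or regulatory RNAs 4 of 10 were called lower in each genotype, Mirg and Firre among them, and in P2-CTCF-KO cells 2 were higher, among them Airn (5.84-fold), which was also lower in P2-CTCF-KO than in WT mesoderm (6.24-fold, edgeR adjusted p = 0.016).

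The deletions were compared with WT at each stage, which asks whether these RNAs respond to loss of a CTCF site at Runx1. No member was called in any of the 4 comparisons by edgeR, and none by DESeq2. In mesoderm 0% of all genes tested were called between P1-CTCF-KO and WT and 0.144% between P2-CTCF-KO and WT; in HPCs 0% were called in either comparison. At an unadjusted p under 0.05 edgeR had 0 members in P1-CTCF-KO and 1 in P2-CTCF-KO mesoderm, Miat, on its 5 counts, and 0 members in each HPC comparison; DESeq2 had 1 in all, Neat1 in P1-CTCF-KO HPCs. Over all genes edgeR had 184 and 1280 at that level in mesoderm and 589 and 543 in HPCs. The same WT libraries entered both comparisons of a stage.

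Most differences between genotypes were small next to their intervals. In mesoderm the log2 difference of Malat1 from WT was 0.05 in P1-CTCF-KO (95% interval -0.68 to 0.78) and -0.16 in P2-CTCF-KO (-0.88 to 0.57). In HPCs it was 0.48 (-0.20 to 1.16) and 0.08 (-0.52 to 0.68), and the 3 P1-CTCF-KO libraries (816 to 911 CPM) lay above the 4 WT libraries (470 to 809 CPM). Apart from Miat, which had at most 4 counts in any of these libraries, the largest fitted difference was that of Neat1 in HPCs, with 9.17, 25.3 and 30.4 CPM in P1-CTCF-KO against 3.58 to 11.2 CPM in WT (3.10-fold, log2 interval 0.09 to 3.17, edgeR adjusted p = 0.917). The intervals of most members reach past 2-fold, so the values do not show that the genotypes were alike. WT and P2-CTCF-KO HPCs include second libraries of a clone, and P1-CTCF-KO HPCs do not.

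The step from mesoderm to HPCs was also compared between genotypes directly. No member differed from WT in either knockout (edgeR; 0% and 0.0159% of all genes tested passed an adjusted p under 0.05), nor by DESeq2. At an unadjusted p under 0.05 edgeR had 0 members and 1 member, Miat again, and DESeq2 none. The Neat1 step was larger than in WT by log2 1.46 in P1-CTCF-KO (interval -0.99 to 3.92) and 1.52 in P2-CTCF-KO (interval -0.95 to 4.00), and without HPC library D10.1 the second of these turned to -0.33. The Snhg12 step differed by -1.19 (interval -2.90 to 0.53) and -0.45 (-1.87 to 0.96). A Neat1 rise called in the knockouts and not in WT is therefore not shown to differ between them.

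Malat1 and Neat1, neighbours on the same strand, varied together across libraries. Over the 21 mesoderm and HPC libraries the Pearson correlation of their log2 CPM was 0.92, with 0.80 within the 9 mesoderm and 0.88 within the 12 HPC libraries. Between Neat1 and the 7 hosts the values over the same 21 libraries were all negative, -0.76 for Gas5, -0.77 for Snhg1, -0.69 for Snhg3, -0.83 for Snhg5, -0.36 for Snhg8, -0.80 for Snhg12 and -0.36 for Dancr. Within a stage they ranged from -0.56 (Snhg1) to 0.23 (Dancr) in mesoderm and from -0.83 (Snhg5) to -0.06 (Dancr) in HPCs. Gas5 and Snhg12 went together at 0.90. These are descriptions across libraries that share clones, stages and scaling, and library depth varied with stage. By the same measure the genes most like Malat1 were Mcf2l (0.95), Fbxl20 (0.93) and Cdk19 (0.92), and those most like Gas5 were Umps (0.93), Mcm5 (0.91) and Rpl10a (0.91).

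**Figure D4:**
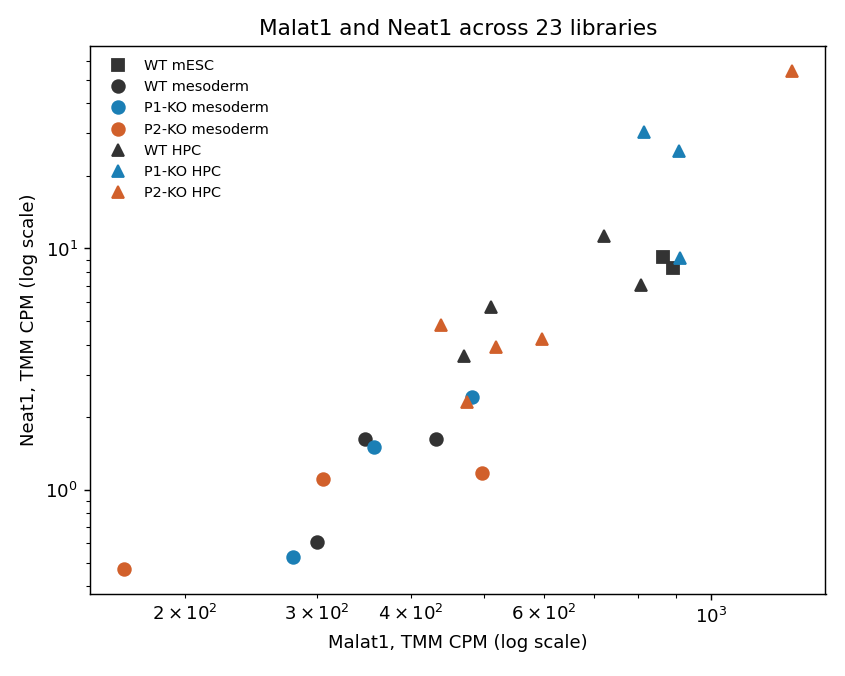
Neat1 against Malat1 in TMM CPM on log axes for all 23 libraries; squares are mESCs, circles mesoderm and triangles HPCs, coloured by genotype. The mesoderm libraries lie at the lower left (Malat1 166 to 497 CPM) and P2-CTCF-KO HPC D10.1 at the upper right.

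Libraries of the same clone and stage showed how far an RNA can vary without a change of label. Between B9.3 and B9.3-2 the Neat1 level differed 3.14-fold (11.2 and 3.58 CPM) and between D2.1 and D2.1-2 by 2.07-fold (4.81 and 2.32 CPM), the first library being higher each time, as in D10.1. Gas5 was lower in the first library of all 3 clones (2.66 against 4.99 CPM in B9.3, 2.23 against 4.995 in D10.1 and 2.37 against 6.02 in D2.1). The same held for Snhg1, Snhg3, Snhg5, Snhg8 and Snhg12, the last 3 at 2 to 16 counts per library. Dancr was lower in the first library of B9.3 and D10.1 and higher in that of D2.1. First and second libraries thus differed mostly in the same direction, and the cause was not tested. P1-CTCF-KO HPCs had no second library, so comparisons of genotypes in HPCs are not balanced for this difference. The second libraries of 3 clones left out together gave 4 called members in WT HPCs against WT mesoderm in place of 1, Neat1, Snhg1, Snhg3 and Snhg12.

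Open chromatin at the starts was read from the ATAC-seq peaks that the authors called on merged WT reads, from cells that the labels call E14-TG2a and the Methods describe as a Runx1 reporter line derived from it. In mesoderm 8 of 10 members had a peak within 1 kb of the start, as did 55.1% of 25011 genes, and in HPCs 7 of 10 did, against 37.0%. Gas5, Snhg1, Snhg5, Snhg8, Snhg12 and Dancr had one at both stages. Snhg3 had a peak over its start in mesoderm (chr4:131909444-131909604, mm9) and none in HPCs, where its RNA was lower. Malat1 had a peak over its start in mesoderm (chr19:5802611-5802686) and the nearest in HPCs lay 909 bases upstream (chr19:5803581-5803647). Neat1 and Miat had none at either stage. The HPC file held 29037 peaks and the mesoderm file 76766, and a difference in a single peak list per stage has no replicate.

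CTCF peaks in 416B cells, a mouse myeloid progenitor line, lay within 1 kb of 2 member starts, against 12.8% of all genes. They were 332 bases upstream of Snhg5 (chr9:88418067-88418227), overlapping ATAC-seq peaks of both stages, and 879 bases upstream of Snhg8 (chr3:123212133-123212300). The peak near Snhg8 overlapped an ATAC-seq peak of mesoderm (chr3:123212170-123212267). Gene coordinates for the members, as the count table gives them in mm9, place Malat1 at chr19:5795689-5802672, Neat1 at chr19:5824709-5845480, Gas5 at chr1:162965046-162968670, Snhg3 at chr4:131907847-131909601 and Snhg12 at chr4:131864592-131866939. Snhg1, Snhg5, Snhg8, Dancr and Miat lie at chr19:8797976-8800816, chr9:88415890-88417735, chr3:123210469-123211254, chr5:74489084-74490362 and chr5:112642247-112657968.

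**Figure D5:**
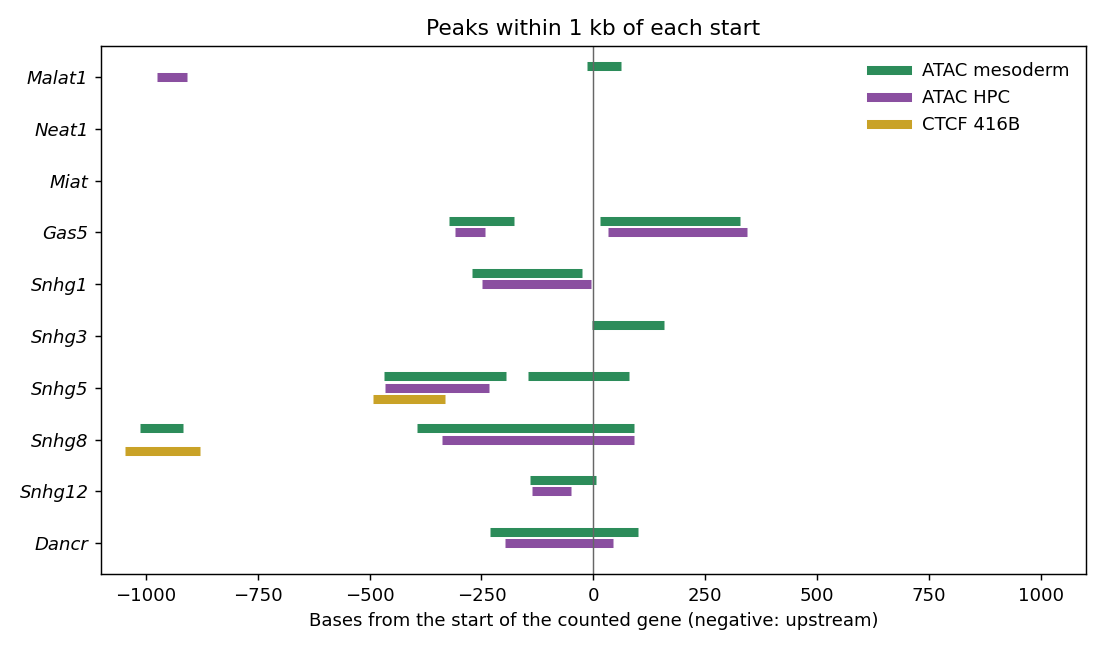
Peaks within 1 kb of the start of each member, in bases from the start with upstream negative; ATAC-seq peaks of WT mesoderm and WT HPCs and CTCF peaks of 416B cells are drawn to scale. Neat1 and Miat have no bar, and the HPC bar of Malat1 begins 909 bases upstream.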

How the data were processed

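Poly(A)-minus RNA-seq of 23 libraries was analysed with ATAC-seq and CTCF peak positions. The deposited values are raw read counts: the authors mapped reads to mm9 with STAR, removed duplicates with picard and counted exons and introns per gene with featureCounts; the strand setting is not given in the sources used here. The authors called the deposited peaks with MACS2. No column of the table was left unused (0).

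Counts were fitted with edgeR 4.0.16 in R 4.3.3 (TMM, filterByExpr with a minimum count of 10, 12543 genes kept, quasi-likelihood test with 16 residual degrees of freedom, 1 fit over all 23 libraries, Benjamini-Hochberg adjustment over all genes). A gene was called at an adjusted p under 0.05 and a log2 change over 1 in size; differences between stage steps had no fold limit. The 95% intervals are from the log2 change and its SE on the normal scale. All 10 members passed the filter, 7 of them also without the mESC libraries. Where all libraries of a group had 0 counts, a bound was taken at a floor of 3 counts per library; it covers counting error only. Levels are CPM on the TMM-scaled library size, per kb where genes are compared. The members and lists were chosen with earlier results of these data known. Members were named by list, and of other lists at most 3 called genes with the lowest p per comparison.

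Mesoderm and HPC libraries of the same clone come from the same cell line by the labels, so clones pair the stages; deviations of a clone's libraries from their group means correlated between -0.04 and 0.12 over the 9 clones. The p-values measure the spread between clones and libraries. No 2 libraries of a group were the same within sampling noise. The fit was tested on data simulated for WT HPCs against WT mesoderm alone. The simulated libraries were independent, so shared clones and the comparison with mESCs were not covered. Alternatives were DESeq2 1.42.0, other scaling and filters, subsets of libraries, summed clones and subtraction of nested snoRNA reads. RefSeq start sequences are from GRCm38.p6 and other sequences from mm9.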

Additional observations from a re-analysis of the deposited data

Results flagged for a closer look

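In 19 tests of a member's highest and lowest library in the WT HPC group (n = 4) and the P2-CTCF-KO HPC group (n = 5), 4 values lay further from the rest than Dixon's 95% limit allows, and chance gives about 1 in 20 groups. In P2-CTCF-KO HPCs library D10.1 stood apart for Neat1, at 54.4 CPM against 4.81 CPM for the next highest, and for Malat1, at 1283 CPM against 597 CPM. In WT HPCs library B9.3 was low for Snhg3, at 1.80 CPM against 3.42 CPM for the next lowest. Library C6.1 was high for Miat in WT HPCs, at 0.0986 CPM, which is 1 count against 0 in the other 3 libraries; a lone count among zeros always passes this limit, so that value says nothing beyond the count.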

How the results depend on the processing

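No called member changed direction under any alternative. In WT HPCs against WT mesoderm the count of called members, 1, was 2 with DESeq2, with no filter on low counts, with only the libraries of the comparison, with libraries of a clone and stage summed, and with the clone as a replicate block, which added Neat1; it was 4 without the second HPC library of each clone, an alternative chosen after seeing the data, and 0 to 3 when a library was left out. The replicate block changed no other call of a member. For WT mesoderm against WT mESCs leaving out a library gave 3 to 10 called members (8 with all) and 1263 to 3238 called genes (2859 with all). Between P2-CTCF-KO and WT mesoderm the 18 genes called became 115 with DESeq2, 93 with no filter, 3 with only the libraries of the comparison, 9 without the undifferentiated libraries, 7 without the second HPC libraries and 2 to 95 when a library was left out. Between P1-CTCF-KO and WT HPCs DESeq2 called 2 genes and edgeR 0. For the difference between stage steps DESeq2 called 1 gene in P1-CTCF-KO against 0. In P2-CTCF-KO the 2 genes became 36 with DESeq2, 38 with no filter, 1 with clones summed and 1 to 4 when a library was left out. DESeq2 placed 59.3% of the calls between WT mESCs and mesoderm higher in mesoderm, against 45.6% in edgeR, with a median log2 change over all genes of 0 against -0.16. The causes were not tested. Hosts with under 15 counts in a later library limit what can be seen at this depth.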

Other observations

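The Malat1 and Neat1 pair was also described over clones, with the libraries of a clone and stage averaged so that each of the 9 clones counts once. It was picked because its correlation was the highest of the 45 pairs of members over these same libraries, so no p-value is given. The log2 levels had Pearson r = 0.804 and Spearman rho = 0.783 in mesoderm, and r = 0.82 and rho = 0.85 in HPCs. Without the 2 clones furthest from the median Malat1 level, r was 0.883 and 0.743. Neat1 and Gas5 had r = -0.451 in mesoderm and -0.615 in HPCs. Each genotype gives 3 clones, too few for a value within a genotype.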
